A study of Homo sapiens with 27 samples.

Results

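The genes for 8 proteins of the azurophil granule were followed in U937 cells treated with matrine. The genes were MPO, ELANE, PRTN3, AZU1, CTSG, LYZ, SRGN and PRSS57. They were chosen by what their proteins are known to be, but with earlier results of these data known. All 8 were found among the 57905 gene identifiers of the table. U937 is an established human myeloid leukemia cell line with monocytic features, and matrine is an alkaloid from Sophora flavescens. RNA-seq was performed on 9 libraries, with 3 from control U937 cells, 3 from U937 cells collected 30 min after the addition of matrine at 0.8 mg/ml and 3 collected 24 h after the same dose. The methods of the study name water as the vehicle of matrine. All groups were grown in the same medium, and no genotype was altered in any of them. The sources used here do not say whether the 3 libraries of a group came from separate cultures, so the p-values measure the spread between these libraries, which may be technical. The control label gives no culture time, so time in culture and matrine cannot be told apart at 24 h.

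Azurophil granules are the first granules that a developing granulocyte or monocyte makes. Their contents are synthesised at the promyelocyte stage, when transcription factors such as C/EBP, PU.1, RUNX1, MYB and GFI1 act on the genes, and the finished proteins stay stored until the cell kills microbes. The serine proteases are made as inactive precursors, are trimmed by cathepsin C, and are packed with serglycin, a proteoglycan whose negatively charged chains hold positively charged cargo. U937 is known to carry several of these transcripts although it is used as a monocytic model.

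The libraries held between 17314931 and 21930018 counts, of which 4.99% to 5.28% fell in the 10 most abundant genes. Replicates of a group differed by more than sampling noise, with a chi-square per degree of freedom from 2.14 to 11.9. The second control library stood apart from the other control libraries on the first component of the deviations within groups, and it held the highest control value for 7 of the 8 genes. This component held 22.5% of the variance within groups. The 30 min libraries differed from each other as well, and the chi-square of 11.9 was between their replicates 2 and 3. Of 14 monocytic markers, 7 had a mean FPKM above 1 in control cells, among them MNDA (131 ± 2.90 FPKM, SD, n = 3), CD4 (28.6 ± 0.207 FPKM), CD33 (14.7 ± 0.298 FPKM) and S100A9 (14.1 ± 0.246 FPKM), whereas CD14 (0.0333 ± 0.0289 FPKM) and CD68 (0.557 ± 0.0681 FPKM) were near 0 and VCAN was listed at 0. FPKM denotes fragments per kilobase of gene, scaled to the depth of the library, and is the level that the authors deposited.

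The genes lie at 6 places in the genome. AZU1 (ENSG00000172232, chr19:825097-832018), PRTN3 (ENSG00000196415, chr19:840999-848175) and ELANE (ENSG00000197561, chr19:851014-856247) follow each other on the plus strand of chromosome 19 with no other protein-coding gene between them. Together they cover 31151 bases, with 8980 bases between AZU1 and PRTN3 and 2838 bases between PRTN3 and ELANE. PRSS57 (ENSG00000185198, chr19:685546-695498) lies on the minus strand of the same chromosome arm. CTSG (ENSG00000100448, chr14:24573518-24576250) and MPO (ENSG00000005381, chr17:58269855-58280935) lie on minus strands, and LYZ (ENSG00000090382, chr12:69348381-69354234) and SRGN (ENSG00000122862, chr10:69088103-69104805) on plus strands. These positions are those of GENCODE release 44 on GRCh38, and the counts were taken over annotated exons.

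Promoter sequences of PRTN3, AZU1 and CTSG are shown because these relatives moved in different ways at 24 h. Each is the 250 bases before the start given by RefSeq on GRCh38.p14, written 5′ to 3′ on the strand of the gene, at chr19:840749-840998 for PRTN3, chr19:827587-827836 for AZU1 and chr14:24576251-24576500 for CTSG. The RefSeq start of AZU1 lies within the longer gene model of GENCODE. Of the 8 genes, 4 had an entry in the RefSeq table, namely these 3 and PRSS57. Capitals mark matches, on either strand, to the motifs GAGGAA (a core bound by PU.1), GCAAT (part of a C/EBP site) and AACNG (a MYB core).
PRTN3: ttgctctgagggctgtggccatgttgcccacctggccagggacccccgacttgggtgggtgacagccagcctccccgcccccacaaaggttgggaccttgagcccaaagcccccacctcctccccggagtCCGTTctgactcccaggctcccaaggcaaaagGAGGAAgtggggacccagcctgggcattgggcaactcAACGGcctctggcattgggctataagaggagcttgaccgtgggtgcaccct
AZU1: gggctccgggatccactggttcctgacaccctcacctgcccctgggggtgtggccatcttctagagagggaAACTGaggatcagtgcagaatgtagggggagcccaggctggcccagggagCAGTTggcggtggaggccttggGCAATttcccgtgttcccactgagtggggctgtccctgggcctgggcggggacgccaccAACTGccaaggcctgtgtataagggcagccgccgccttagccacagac
CTSG: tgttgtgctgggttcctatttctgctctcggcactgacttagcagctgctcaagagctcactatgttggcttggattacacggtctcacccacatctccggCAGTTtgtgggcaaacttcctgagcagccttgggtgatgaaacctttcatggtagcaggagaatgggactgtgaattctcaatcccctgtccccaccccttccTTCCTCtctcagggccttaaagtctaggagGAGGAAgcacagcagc

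The PRTN3 window held GAGGAA from -88 to -83 and AACNG at -51 and, on the other strand, at -120, counted from the start. The AZU1 window held GCAAT from -107 to -103 and 3 matches to AACNG, and it held no GAGGAA. The CTSG window held GAGGAA at -16 and on the other strand at -46, with 1 match to AACNG. In PRSS57 there were matches to GCAAT on the other strand at -247, to AACNG on the other strand at -198 and -44, and to TGTGGT (a RUNX1 core) on the other strand at -77. CACGTG, the E-box bound by MYC, and TATAAA matched none of these 4 windows. None of the matches overlapped another. Such short words are frequent: of 35116 promoter windows of this length, GAGGAA was in 23.6%, GCAAT in 21.3%, AACNG in 70.6%, TGTGGT in 11.0%, CACGTG in 6.34% and TATAAA in 10.7%. The matches describe the letters only.

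In control cells, the mRNAs of the granule proteases and of serglycin were among the most abundant transcripts, and those of MPO and PRSS57 were near the limit of detection. SRGN ranked 8th of all genes by FPKM, ELANE ranked 30th, PRTN3 38th and CTSG 39th. The order of mean FPKM in control cells was SRGN, ELANE, PRTN3, CTSG, LYZ, AZU1, PRSS57 and MPO, and the ranges of neighbours in this order overlapped only for PRTN3 and CTSG. After 30 min the order was the same, and PRTN3 overlapped CTSG and PRSS57 overlapped MPO. After 24 h the order was ELANE, SRGN, CTSG, AZU1, PRTN3, LYZ, PRSS57 and MPO, with no overlap between neighbours. The 8 genes took 1.56% ± 0.0629 of all FPKM in control cells, 1.57% ± 0.00620 after 30 min and 1.44% ± 0.0223 after 24 h (SD, n = 3).

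**Figure D1:**
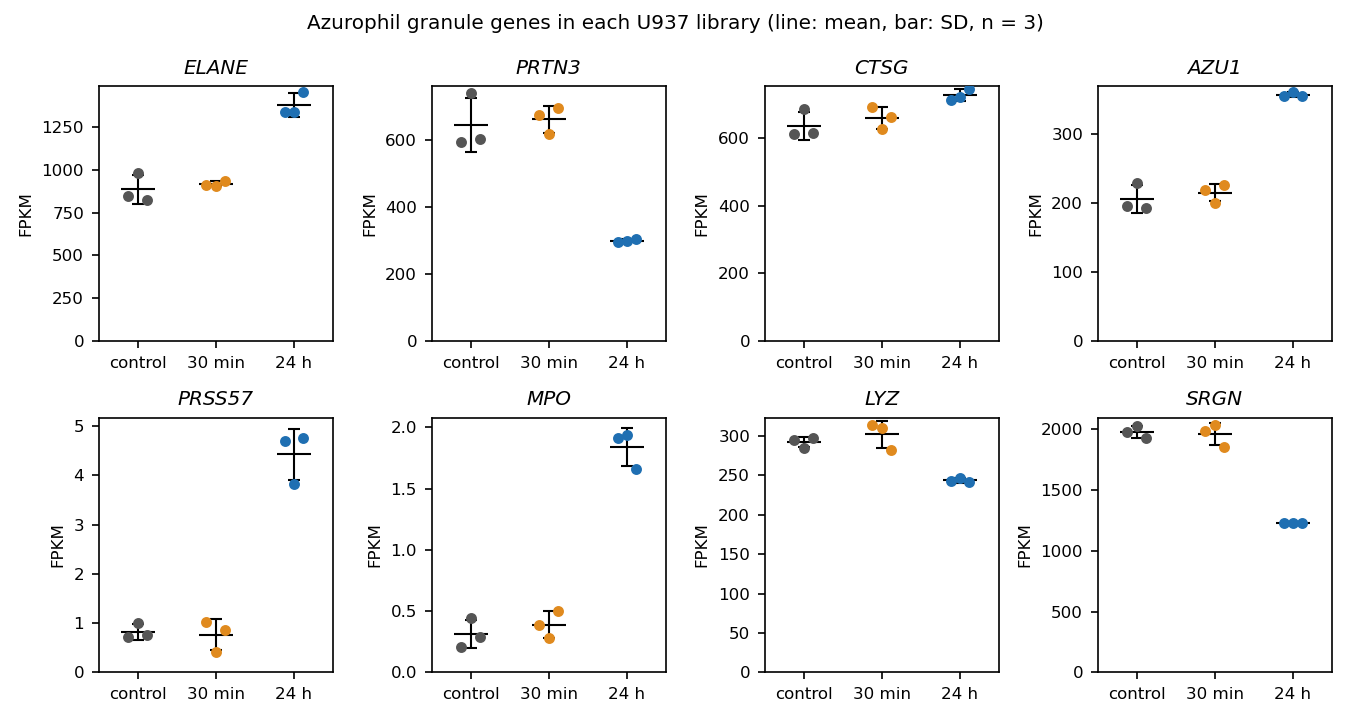
FPKM (y axis, from 0, one scale per gene) of the 8 genes in each of the 9 libraries, grouped as control, 30 min and 24 h; lines are means and bars SDs of 3 libraries. PRTN3, LYZ and SRGN sit lower at 24 h than in every control library, and the other 5 genes sit higher.

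Between control and 24 h, of the 6 genes that were abundant in every group, ELANE and AZU1 were called higher, PRTN3 and SRGN lower, and CTSG and LYZ changed by less than 1.5-fold. A call is a Benjamini-Hochberg adjusted p under 0.05 in edgeR's quasi-likelihood test with a fold change of at least 1.5. In the same comparison 26.3% of the 12035 tested genes were called, 15.1% higher and 11.2% lower. The 3 libraries of each group did not overlap for any of these 6 genes, with 3 higher and 3 lower, as they did not for 38.7% (higher) and 31.0% (lower) of all tested genes. MPO and PRSS57 entered the test, which needed a mean FPKM above 1 over the 6 libraries, only through their 24 h values, so they had to differ, and they are described by their levels with no p. The rule calls both of them higher, and this is not counted here.

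Neutrophil elastase is encoded by ELANE and degrades elastin and bacterial proteins. ELANE was at 849, 983 and 823.0 FPKM in the control libraries, at 912, 908 and 935 FPKM after 30 min and at 1337, 1339 and 1457 FPKM after 24 h. The 24 h libraries lay above all others. The change at 24 h against control was 0.59 ± 0.064 on the log2 scale (SE, 95% CI 0.46 to 0.72, edgeR adjusted p = 8.2e-08). This fold change, 1.505, lay at the threshold: it was 0.55 without control replicate 1, 0.53 without control replicate 3 and 0.53 without 24 h replicate 3 on the log2 scale, each under the threshold, and against 30 min it was 0.51 ± 0.064 and was not called (edgeR adjusted p = 6.6e-07).

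Proteinase 3, the product of PRTN3, is a close relative of elastase and the main target of autoantibodies in granulomatosis with polyangiitis. PRTN3 was at 594, 741 and 604 FPKM in control cells, at 676, 618 and 696 FPKM after 30 min and at 297, 298 and 306 FPKM after 24 h. Every 24 h library lay far below every other library, and the 24 h libraries were close to each other. PRTN3 fell by 1.15 ± 0.075 at 24 h against control on the log2 scale (SE, 2.23-fold lower, edgeR adjusted p = 3.2e-11) and by 1.22 ± 0.075 against 30 min (edgeR adjusted p = 1.2e-11). It was the gene with the 218th lowest log2 fold change of the 12035 tested.

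Azurocidin, encoded by AZU1, is a protease homologue without catalytic activity that kills bacteria and attracts monocytes. AZU1 was at 195, 228 and 193 FPKM in control cells, at 219, 200.3 and 225 FPKM after 30 min and at 355, 360.3 and 355 FPKM after 24 h. All 24 h values were higher than all others. AZU1 rose by 0.75 ± 0.067 on the log2 scale against control (SE, 1.68-fold, edgeR adjusted p = 4.2e-09) and by 0.65 ± 0.066 against 30 min (edgeR adjusted p = 2.9e-08).

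Cathepsin G, encoded by CTSG, is the chymotrypsin-like protease of the granule. CTSG was at 611, 685 and 616 FPKM in control cells, at 692, 628 and 662 FPKM after 30 min and at 714, 722 and 747 FPKM after 24 h. The 24 h libraries were the highest, by a small margin. The difference at 24 h against control was 0.14 on the log2 scale (95% CI 0.02 to 0.26, edgeR adjusted p = 0.040), under the 1.5-fold threshold. It was 0.08 (95% CI -0.03 to 0.18, edgeR adjusted p = 0.33) with no filter beyond 1 count, its edgeR adjusted p was 0.20 without control replicate 1, 0.18 without control replicate 3, 0.051, 0.067 and 0.17 without 24 h replicates 1, 2 and 3, and over all alternatives the difference ran from 0.08 to 0.20. Against 30 min it was 0.06 (95% CI -0.06 to 0.18, edgeR adjusted p = 0.39). PRSS57 encodes neutrophil serine protease 4, a scarce member of the family. It was at 0.71, 1.01 and 0.75 FPKM in control cells, at 1.02, 0.41 and 0.86 FPKM after 30 min and at 4.70, 3.83 and 4.76 FPKM after 24 h. These levels rested on 14 to 21 counts per control library and 84 to 112 counts per 24 h library, and the fitted difference was 2.37 ± 0.27 on the log2 scale (SE), or 2.30 (95% CI 1.79 to 2.82) in the fit with no filter beyond 1 count.

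Myeloperoxidase, encoded by MPO, makes hypochlorous acid and is the classical stain of the granulocytic lineage. MPO was at 0.21, 0.44 and 0.29 FPKM in control cells, at 0.39, 0.28 and 0.50 FPKM after 30 min and at 1.91, 1.94 and 1.66 FPKM after 24 h. The 24 h values were higher than all others but remained low, and MPO ranked 10593rd of all genes by FPKM at 24 h. The counts were 16 to 31 per control library and 131 to 143 per 24 h library. The fitted difference was 2.496 ± 0.24 on the log2 scale (SE), or 2.43 (95% CI 1.99 to 2.87) in the fit with no filter beyond 1 count, and it was 1.11 with limma on log2(FPKM + 1), a scale on which low values count for less. Without any one of the 24 h libraries MPO did not pass the filter and was not tested against control.

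Lysozyme, encoded by LYZ, cuts bacterial cell walls and is found in all granule types and in monocytes. LYZ was at 295, 285 and 297 FPKM in control cells, at 313, 311 and 282 FPKM after 30 min and at 242, 247 and 241 FPKM after 24 h. The 24 h libraries were the lowest, and the change of -0.31 ± 0.053 on the log2 scale against control (SE, edgeR adjusted p = 2.9e-05) was smaller than 1.5-fold. With the trend on GC content removed from each library it was -0.17 (edgeR adjusted p = 0.00082), and it ran from -0.38 to -0.17 over the alternatives; the LYZ transcript holds 41.3% GC. An annotated gene on the opposite strand shares exon sequence with LYZ; it had 0 counts in all 9 libraries, and the strand setting of the counting is not given in the sources used here. Serglycin, encoded by SRGN, forms the storage matrix. SRGN was at 1974, 2021 and 1928 FPKM in control cells, at 1986, 2037 and 1855 FPKM after 30 min and at 1224, 1227 and 1224 FPKM after 24 h. All 24 h libraries were lower than all others, and SRGN fell by 0.74 ± 0.049 on the log2 scale (SE, 1.67-fold lower, edgeR adjusted p = 5.2e-11). With the trend on GC content removed from each library the change was -0.57 and was no longer called; the SRGN transcript holds 37.96% GC, the lowest of the 8 genes, against 66.4% for PRTN3 and 66.8% for ELANE.

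**Figure D2:**
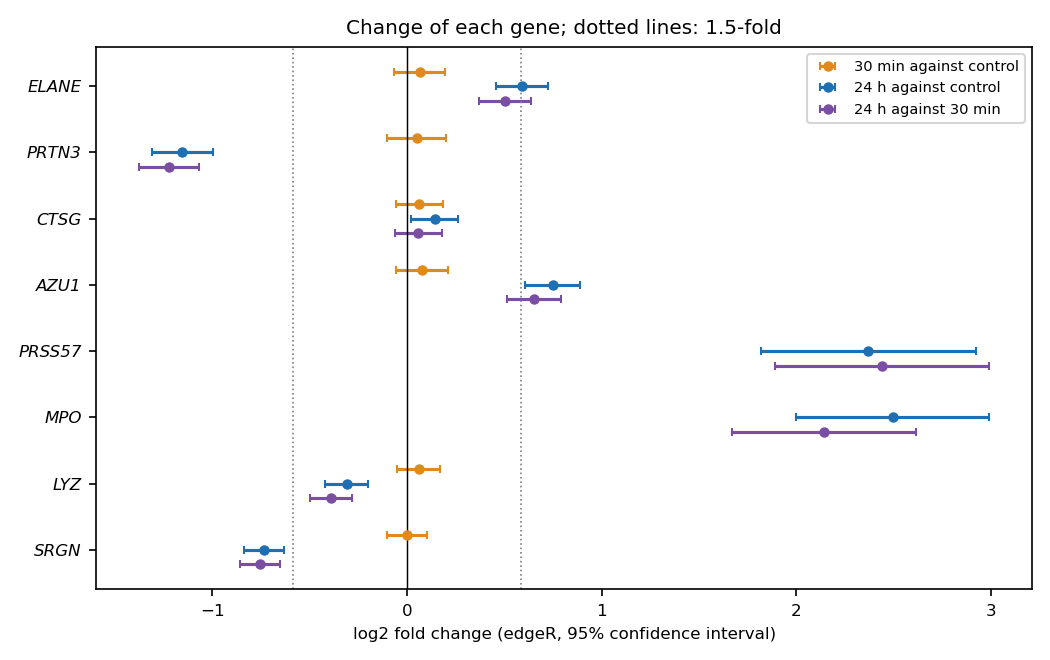
Log2 fold change (x axis) of each gene in the 3 comparisons with 95% confidence intervals from edgeR; dotted lines mark 1.5-fold, and MPO and PRSS57 were not tested at 30 min. At 30 min all 6 points lie between 0.00 and 0.08, whereas at 24 h against control the same 6 genes run from -1.15 for PRTN3 to 0.75 for AZU1. MPO at 2.496 and PRSS57 at 2.37 passed the filter only through their 24 h values, which fixed their direction.

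After 30 min none of the 6 tested genes was called, where 0.639% of the 11587 tested genes were called, 0.0949% higher and 0.544% lower. The log2 fold changes lay between 0.0011 for SRGN and 0.077 for AZU1, with edgeR adjusted p from 0.74 to 1.0, and 0 of the 6 had an unadjusted p under 0.05. DESeq2 and limma called 0 of them as well. The confidence intervals bounded any change: for PRTN3 the interval ran from -0.10 to 0.20 and for ELANE from -0.07 to 0.20 on the log2 scale. MPO and PRSS57 were under the filter, and without the filter their log2 fold changes were 0.34 (95% CI -0.20 to 0.88) and -0.08 (95% CI -0.73 to 0.57). The control and 30 min libraries overlapped for all 8 genes, whereas they did not for 4.89% (higher) and 8.91% (lower) of all tested genes.

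Against 30 min, which shares the 24 h libraries with the comparison above, AZU1 was called higher at 24 h and PRTN3 and SRGN lower among the 6 abundant genes, and ELANE, CTSG and LYZ were not called. MPO and PRSS57 again passed the filter through their 24 h libraries and are not counted. Of the 11981 tested genes 26.9% were called, 15.4% higher and 11.5% lower, which is 1844 higher and 1379 lower, or 2235 and 1079 when libraries were scaled by their totals alone. The groups did not overlap for any of the 6 abundant genes, with 3 higher and 3 lower, nor for 39.9% (higher) and 28.6% (lower) of all tested genes. An adjusted p under 0.05 without a fold threshold was reached by 5 of the 6 abundant genes and by 65.1% of all tested genes. LYZ differed by -0.39 ± 0.053 and SRGN by -0.76 ± 0.049 on the log2 scale (SE), and the fitted differences of MPO and PRSS57, which the filter had fixed in direction, were 2.14 ± 0.23 and 2.44 ± 0.26.

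The opposite changes of the chromosome 19 neighbours were also compared within each library, where depth and normalisation cancel. The ratios use the same libraries and genes as above, and the pairs were not set in the plan. They describe the same changes again and are not separate support. The ratio of PRTN3 to ELANE in FPKM was 0.700, 0.753 and 0.733 in control cells, 0.741, 0.681 and 0.745 after 30 min and 0.223, 0.222 and 0.210 after 24 h. The 24 h ratios lay far below all others, with a mean of 0.218 ± 0.00700 against 0.729 ± 0.0270 in control cells (SD, n = 3, two-sided exact permutation p = 0.1, adjusted 0.15 over 12 such tests), and 0.1 is the smallest p that 3 against 3 libraries allow. The ratio of PRTN3 to AZU1 was 3.14 ± 0.101 in control cells, 3.09 ± 0.00320 after 30 min and 0.842 ± 0.0187 after 24 h. ELANE and AZU1 kept more similar proportions, with a ratio of 4.31 ± 0.0420 in control cells and 3.86 ± 0.210 after 24 h (SD, n = 3, exact permutation p = 0.1). The ratio of CTSG to ELANE was 0.722 ± 0.0259 in control cells and 0.529 ± 0.0139 after 24 h.

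**Figure D3:**
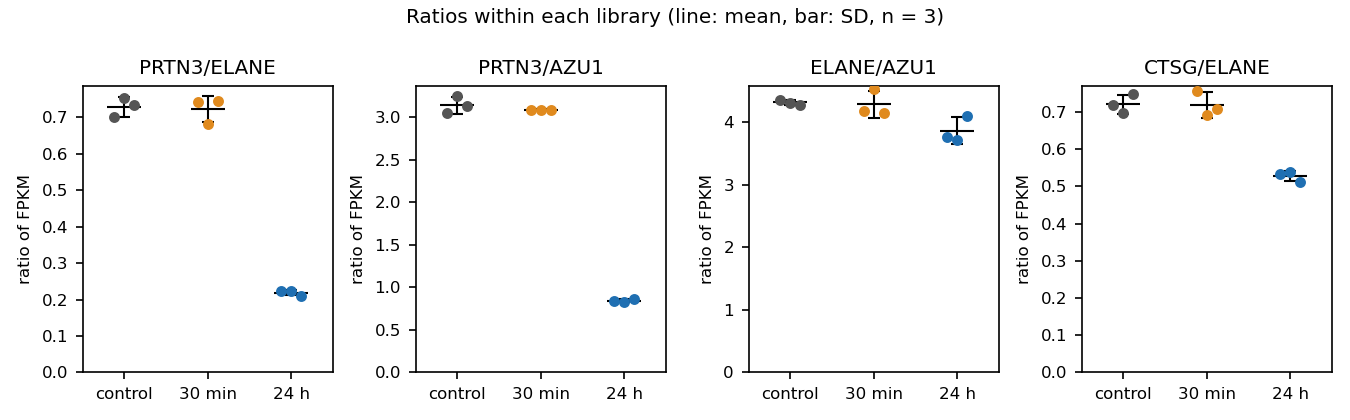
Ratios of FPKM between pairs of granule genes (y axes, from 0) in each of the 9 libraries, with mean and SD of 3 libraries per group. PRTN3 against ELANE falls from 0.729 in control cells to 0.218 at 24 h and PRTN3 against AZU1 from 3.14 to 0.842, while ELANE against AZU1 stays between 3.72 and 4.53.

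Neighbours were the next protein-coding genes on each side with a mean FPKM above 1 over the control and 24 h libraries. Distance was not limited, so genes under this level can lie between a member and its neighbour. CFD, which encodes complement factor D and lies next to ELANE, rose at 24 h from 74.8 ± 13.0 to 210.1 ± 14.2 FPKM (SD, n = 3), a log2 fold change of 1.44 ± 0.096 (SE, edgeR adjusted p = 5.1e-11). PRTN3 lay between AZU1 and ELANE, both called higher, the latter at the threshold. Beyond these genes, PLPPR3 changed by -0.40 ± 0.10 and MED16 by 0.06 ± 0.073 on the log2 scale, and neither was called. Next to MPO, TSPOAP1 rose from 0.333 ± 0.0404 to 1.69 ± 0.0351 FPKM (SD, n = 3), a log2 fold change of 2.30 ± 0.13 (SE), and it too passed the filter through the 24 h libraries, whereas MKS1 on the other side was at -0.04 ± 0.11. The tested neighbours of CTSG (SDR39U1 and G2E3), LYZ (CPSF6 and YEATS4), SRGN (KIFBP and VPS26A) and PRSS57 (FSTL3 and PTBP1) were not called, with log2 fold changes between -0.33 for G2E3 and 0.32 for KIFBP.

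**Figure D4:**
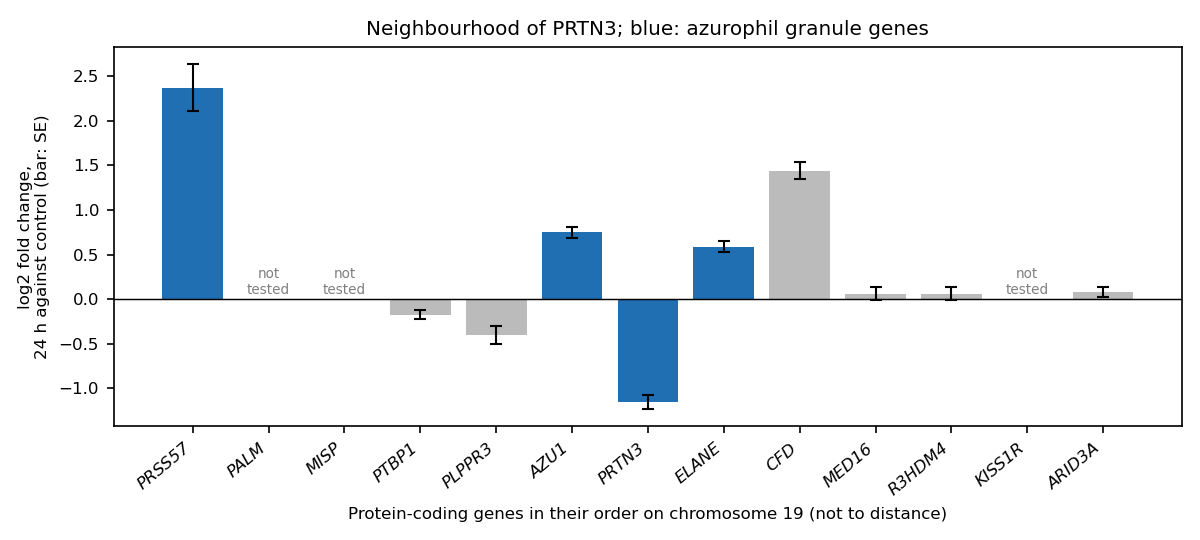
Log2 fold change at 24 h against control (y axis, bars with SE from edgeR) of protein-coding genes in their order along chromosome 19 around PRTN3, not drawn to distance; azurophil granule genes are blue. PRTN3 at -1.15 stands between AZU1 at 0.75 and ELANE at 0.59, and CFD is at 1.44.

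Other contents of the azurophil granule were read from a list of 24 genes, of which 18 were tested at 24 h, 9 were called higher and 0 lower, beside 15.1% and 11.2% over all tested genes, with a median log2 fold change of 0.58 against 0.01 over all tested genes. Those with the largest increases were lysosomal: NEU1, a sialidase, rose from 20.5 ± 0.375 to 73.6 ± 2.70 FPKM (SD, n = 3, log2 fold change 1.79), NPC2, a cholesterol carrier, rose from 43.2 ± 2.72 to 123 ± 4.42 FPKM (1.46), and CTSD, an aspartic protease, rose from 552 ± 41.4 to 1308 ± 40.1 FPKM (1.20). The antimicrobial ribonuclease gene RNASE3 was at 316 ± 8.40 and 344 ± 17.8 FPKM and was not called. Its relative RNASE2 was called higher, from 293 ± 2.39 to 459 ± 3.62 FPKM (log2 fold change 0.60). MS4A3 changed by -0.34 on the log2 scale (edgeR adjusted p = 0.00013), under the 1.5-fold threshold. The defensin genes DEFA1, DEFA1B, DEFA3 and DEFA4 were listed at 0 in all 9 libraries; DEFA1, DEFA1B and DEFA3 are near-identical copies, between which reads cannot be assigned with certainty. At 30 min, 0 of the 19 tested genes of this list were called.

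Among 20 genes for protease activation, folding, sorting and release of granules, 4 were called higher at 24 h and 0 lower, beside 15.1% higher and 11.2% lower over all tested genes, with a median log2 fold change of 0.05; without control replicate 2, 1 gene, LYST, was called lower. RAB27A and STX11, which act in granule docking and fusion, rose by 0.87 ± 0.058 and 0.96 ± 0.15 on the log2 scale. STXBP2, the partner of syntaxin 11, rose by 0.93 ± 0.063 (SE, edgeR adjusted p at most 1e-05 for these genes). The 16 genes not called went both ways. CTSC, which encodes cathepsin C, fell by 0.39, and the folding genes CALR, CANX and PDIA3 by 0.41, 0.30 and 0.23. JAGN1 and LYST fell by 0.45 and 0.54, whereas VPS45, VPS13B and AP3D1 rose by 0.48, 0.36 and 0.26. For these genes under the threshold the edgeR adjusted p was at most 0.0028. Of the protease inhibitors, 3 of 10 tested genes were called higher and 1 lower at 24 h, beside 15.1% and 11.2% over all tested genes, with a median of 0.33. The cystatin genes CSTB and CST3 rose by 0.96 and 0.59 and SERPINA1, which encodes the main elastase inhibitor of plasma, rose by 0.75 on the log2 scale; the call of CST3 was lost without control replicate 1 (0.54), control replicate 3 (0.54) or 24 h replicate 3 (0.52). SERPINB2, an inhibitor of plasminogen activators, fell at both times, from 54.3 ± 3.31 FPKM to 29.8 ± 1.61 after 30 min and 18.8 ± 0.770 after 24 h (SD, n = 3).

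At 30 min, when none of the 6 tested granule genes was called, 3 of 14 tested myeloid regulators of azurophil genes were called lower and 0 higher, beside 0.544% lower and 0.0949% higher over all tested genes, with a median log2 fold change of -0.21 against -0.0043. This list was chosen with earlier results of these data known. It includes MYC, whose early fall the paper reports, so the count is a description and not a test of the list. MYC fell from 207 ± 5.10 to 54.1 ± 4.58 FPKM (SD, n = 3), GFI1, a repressor needed for granulocyte formation, fell from 115 ± 1.11 to 70.9 ± 4.70 FPKM, and CEBPB fell from 40.8 ± 6.29 to 24.0 ± 1.08 FPKM. At 24 h, MYC (43.8 ± 2.03 FPKM) remained called lower, whereas GFI1 (92.6 ± 1.66 FPKM) and CEBPB (45.7 ± 3.61 FPKM) were not called. GFI1 was still at -0.37 against control on the log2 scale (edgeR adjusted p = 5.7e-06), and CEBPB was at 0.12 (edgeR adjusted p = 0.28). CEBPA, SPI1 (the gene of PU.1), RUNX1 and MYB were at -0.37, -0.32, -0.35 and -0.40, and ETV6 was at 0.32. For these 5 genes the edgeR adjusted p was at most 0.00046, and each changed by less than 1.5-fold. HOXA9 and MEIS1, partner homeobox factors of immature myeloid cells, rose by 0.62 and 1.17 on the log2 scale. HOXA9 fell under the threshold without a filter (0.55). At 24 h the list held 2 called higher and 1 lower of 14, beside 15.1% and 11.2% over all tested genes, with a median of -0.18.

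Most genes of later granules were under the filter. Of 20 specific and gelatinase granule genes, 7 were tested at 24 h, with 4 called higher and 1 lower, beside 15.1% and 11.2% over all tested genes, and a median log2 fold change of 1.17. CHI3L1, a chitinase-like protein, rose from 6.96 ± 0.382 to 41.4 ± 0.401 FPKM, CAMP, the cathelicidin, from 0.523 ± 0.201 to 3.23 ± 0.248 FPKM, and ITGAM, the CD11b chain, from 1.28 ± 0.127 to 3.15 ± 0.113 FPKM (SD, n = 3). CAMP reached the filter only through its 24 h level, so its direction was fixed, and the count and the median given above include it. The other genes called higher were CHI3L1, ITGAM and MMP25. FCN1, a lectin of monocytes, fell by 0.66 ± 0.10 on the log2 scale (SE, edgeR adjusted p = 1.3e-05) and lost its call with the GC trend removed (-0.55) and with limma at a pseudocount of 1 (-0.57). Of 20 related proteases, peroxidases and lysozymes, only 3 were tested at 24 h, and all 3 were called higher, beside 15.1% over all tested genes. They were CFD and the tryptase genes TPSAB1 (100.1 ± 6.27 to 403 ± 14.2 FPKM) and TPSB2 (0.50 ± 0.0819 to 1.64 ± 0.363 FPKM). The tryptase genes are near-identical copies, so the split of reads between them is uncertain. TPSB2 passed the filter only through its 24 h libraries, so its direction was fixed. Of 15 genes that build the glycosaminoglycan chains of serglycin, 13 were tested at 24 h, 0 were called higher and 2 lower (15.1% and 11.2% over all tested genes), CHST11 by 0.61 and B3GALT6 by 0.64 on the log2 scale, with a median of 0.08 over the list; CHST11 was not called without control replicate 3 (-0.58) or with library totals alone (-0.56), and B3GALT6 was not called when the filter was a mean FPKM above 5 (-0.58).

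**Figure D5:**
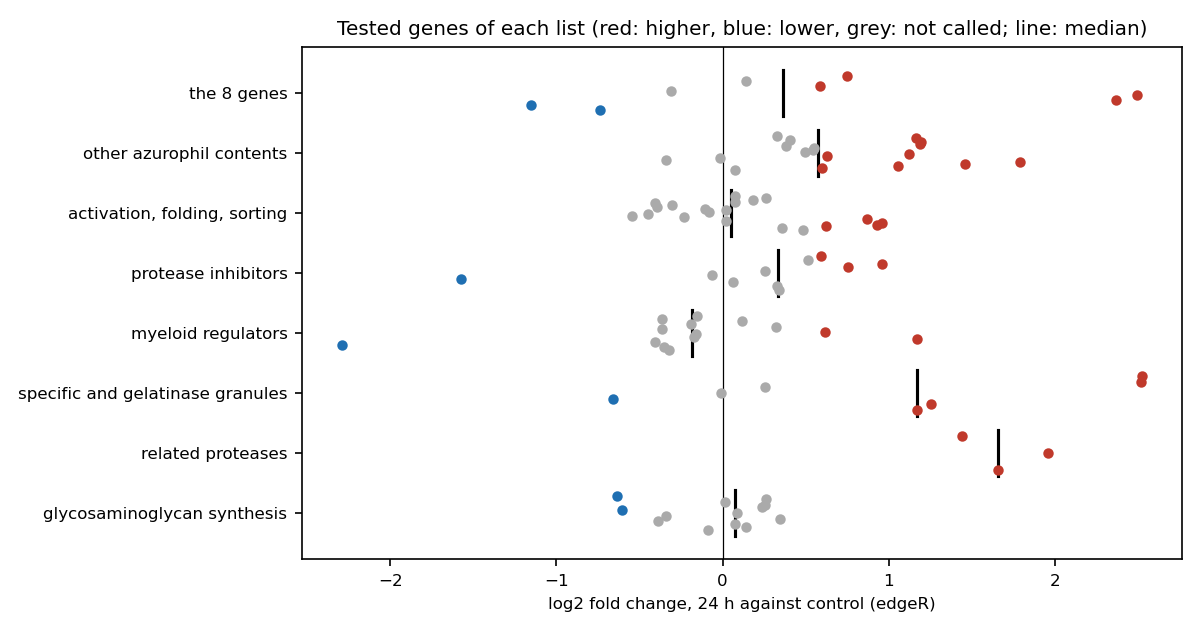
Log2 fold change at 24 h against control (x axis, edgeR) of each tested gene in the gene lists (rows); red points were called higher, blue lower and grey not called, and black lines are medians. Of the 8 genes, the 6 that were abundant in every group spread from -1.15 to 0.75. MPO at 2.496 and PRSS57 at 2.37 passed the filter only through their 24 h values. The other azurophil contents have 9 red points and no blue ones.

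Markers of cell types were read beside these results. Of 14 monocytic markers, 8 were tested at 24 h, with 2 called higher and 0 lower, beside 15.1% and 11.2% over all tested genes. The 2 were ITGAX (log2 fold change 2.64, from 0.607 to 3.90 FPKM) and FCGR2A (0.99). ITGAX passed the filter only through its 24 h libraries, so its direction was fixed. The summed level of the list was 196 to 201 FPKM in control libraries, 184 to 203 after 30 min and 218 to 223 after 24 h. Of 10 granulocytic progenitor markers, 6 were tested at 24 h, with 1 called higher and 1 lower, beside 15.1% and 11.2% over all tested genes. CSF3R rose by 1.12 on the log2 scale. FLT3, at 1.36 FPKM in control cells and 0.787 FPKM after 24 h, passed the filter only through its control libraries, so its direction was fixed. The fitted difference of FLT3 was -0.83 on the log2 scale (not tested without control replicate 3, and -0.40 and not called with limma at a pseudocount of 1). CD34 and KIT were near 0, and the sum was 217 to 231 FPKM in control libraries and 224 to 231 after 24 h. Lymphoid markers summed to 164 to 188 FPKM in control libraries and 280 to 295 after 24 h, of which NKG7, a granule membrane gene of cytotoxic cells, made up the most (173 ± 11.8 to 285 ± 7.82 FPKM, SD, n = 3), CD79A rose from 1.49 to 2.58 FPKM, and CD3D and CD3E were listed at 0. Of 8 erythroid markers only KLF1 was tested, the sum was 2.45 to 4.12 FPKM over all libraries and HBB was listed at 0. Stromal and epithelial markers summed to at most 0.12 FPKM. The part of such shifts in the changes of the granule genes was not tested, and in bulk samples a smaller number of expressing cells and less RNA per cell cannot be told apart.

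The genes whose pattern was nearest to each member were found by the root mean square difference over the 9 libraries, in log2 CPM relative to the control mean, among 11631 named genes tested at 24 h. For PRTN3 they were METTL26 (0.051) and MRPS2 (0.055), for SRGN they were CCT8 (0.021) and HDGF (0.027), and for LYZ they were SUMO2 (0.027) and SLC25A12 (0.035). For ELANE they were CERCAM (0.037) and CST3 (0.046), for AZU1 they were S100A6 (0.046) and CLU (0.048), and for CTSG they were NCAPH2 (0.015) and ERGIC3 (0.016). The nearest genes of MPO, GASAL1 (0.26) and IRF7 (0.30), and of PRSS57, SLC22A18AS (0.24) and IRF7 (0.28), were farther from them. No other of the 8 genes was among the 2 genes nearest to any member.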

How the data were processed

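The U937 table holds, for each gene and library, raw counts and FPKM values deposited by the authors. Per the labels and the processing notes of the submitters, reads were trimmed with cutadapt 1.9.1, mapped with HISAT2 2.0.1 and counted with HTSeq 0.6.1; the notes name GRCh37 and the methods of the study hg38, so the build of the counts is unsure, and the annotation release and the strand setting are not given in the sources used here. The FPKM values deposited by the authors are rounded to 2 decimals and were used for levels, ratios and the filter, which required that the 6 libraries compared had a mean FPKM above 1. The deposited counts were tested with edgeR 4.0.16 (TMM, quasi-likelihood, all 9 libraries in 1 fit, R 4.3.3), with Benjamini-Hochberg adjustment over all tested genes. Alternatives were DESeq2 1.42.0, limma 3.58.1 with pseudocounts of 0.1 and 1, other filters, scalings and thresholds, and each library left out. The GC correction and the share in counts were added after seeing the data. The ratios between pairs of genes and their permutation tests were not in the plan either. On simulated data 187 of 200 genes changed by 2-fold at 24 h were recovered, with 1 false call among 12035 genes. The simulated counts were drawn independently for each gene and library, and only these 200 genes differed. In the real libraries 26.3% of the tested genes were called at 24 h against control, so the simulated false calls do not measure those of the data. Of 57905 identifiers, 51996 were matched to a symbol. Comparisons at 30 min and at 24 h share the control libraries. The 8 genes and the gene lists were chosen with earlier results of these data known. All 8 genes were named, with the tested neighbours and the 2 genes nearest in pattern. From each list were named up to 3 called genes with the largest increase and up to 3 with the largest decrease at 24 h. Any gene of a list called at 30 min was named too. Markers, defensins, RNASE2, RNASE3, MS4A3 and genes that set a limit were named after their values were seen. So were CTSC, CALR, CANX, PDIA3, JAGN1, LYST, VPS45, VPS13B, AP3D1, CEBPA, SPI1, RUNX1, MYB and ETV6. Libraries of HL-60 and K562 cells were not used here.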

Additional observations from a re-analysis of the deposited data

Results flagged for a closer look

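The effects at 24 h and at 30 min, both taken against the same control libraries, differed by edgeR's test of 24 h against 30 min in 5 of the 6 genes that were abundant in every group. The difference on the log2 scale was 0.65 for AZU1 and 0.51 for ELANE, which were higher at 24 h in 3 of 3 libraries. It was -1.22 for PRTN3, -0.76 for SRGN and -0.39 for LYZ, which were lower at 24 h in 3 of 3 libraries. The differences of ELANE and LYZ stayed under the 1.5-fold threshold. In this comparison 65.1% of the 11981 tested genes had an adjusted p under 0.05. CTSG was not among them, with a difference of 0.06 (edgeR adjusted p = 0.39). The fitted differences of MPO and PRSS57 were 2.14 and 2.44, but both genes passed the filter only through their 24 h libraries and were not tested at 30 min against control, so these are descriptions.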

How the results depend on the processing

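With 3 libraries per group, the direction of all 8 genes at 24 h was the same under every alternative that gave a value, and PRTN3 kept its call in each, between -1.22 and -1.05 on the log2 scale against control. With MPO and PRSS57 counted, whose calls the filter had fixed in direction, 6 of 8 genes were called at 24 h against control and 4 to 6 when 1 library was left out (higher, 2 to 4; lower, 2 to 2). With a fold change of at least 2, 3 were called (2 higher, 1 lower), with a mean FPKM above 5, 2 were called higher because MPO and PRSS57 were no longer tested, and with the GC trend removed 1 was called lower, since SRGN moved to -0.57. Against 30 min, 5 were called, 4 to 5 with 1 library left out, 3 with a mean FPKM above 5 (1 higher) and 3 with a fold change of at least 2 (1 lower). ELANE was under the threshold without a filter (0.52), with DESeq2 (0.58) and with the size factors of DESeq2 (0.58), and the cause was not tested. At 30 min the value of SRGN, 0.0011, changed sign with a mean FPKM above 5 (-0.0076), with library totals alone (-0.0112) and with limma at both pseudocounts (-0.0121 and -0.0121), and ranged from -0.0203 to 0.0442 when 1 library was left out; PRTN3 ranged from -0.0011 to 0.1677. As a share of counts in place of FPKM, the 8 genes took 0.581% in control cells, 0.592% after 30 min and 0.533% after 24 h.

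The replicate numbers did not pair the libraries: same-numbered libraries correlated between -0.129 and 0.071 in their deviations, and not every library correlated best with its own number. The fit with the replicate number as a block called 6 of the 8 genes at 24 h, 0 at 30 min and 5 between the times, with 1815 genes higher and 1343 lower at 24 h over all genes, against 1820 and 1344. Over all genes at 24 h against control, 869 were higher and 808 lower with a mean FPKM above 5, 765 and 355 with a fold change of at least 2, and 3794 and 3824 with no fold threshold. At 30 min, 11 were higher and 63 lower, against 30 and 95 without a filter, 34 and 154 with no fold threshold, 1 and 23 with a fold change of at least 2, 7 higher with a mean FPKM above 5 or with limma at a pseudocount of 1, and 18 higher without 30 min replicate 2. Of the counts of the gene lists under the alternatives, 1203 were within 1.5 times the value given and 93 were not, most of them with another fold threshold or without a filter. The 1203 include counts of 0 that stayed at 0. Many of the list counts were 0, above all at 30 min, and had little room to change. MPO and PRSS57, with at most 31 counts in a control library, are limited by depth.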
